A study of Mus musculus with 18 samples.

Results

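Voltage-gated calcium and sodium channels open when the membrane depolarises and carry the currents that drive action potentials, transmitter release and calcium-dependent gene expression. A calcium channel has a pore-forming alpha1 subunit (Cacna1 genes) that is joined by an extracellular alpha2delta subunit (Cacna2d genes) and a cytoplasmic beta subunit (Cacnb genes), while most gamma genes (Cacng) are better known as auxiliary subunits of AMPA receptors. A sodium channel has a pore-forming alpha subunit (Scn genes ending in a) and beta subunits (Scn genes ending in b) that also act as adhesion molecules. The genes described here are all autosomal protein-coding genes whose symbol begins with Cacna, Cacnb, Cacng or Scn followed by a digit, which gave 39 of 20665 autosomal protein-coding genes. They comprise 9 calcium alpha1, 4 alpha2delta, 4 calcium beta, 8 calcium gamma, 10 sodium alpha and 4 sodium beta genes.

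The mark measured at these genes was H3K27me3, the trimethylation of lysine 27 on histone H3. It is placed by Polycomb repressive complex 2, whose usual catalytic subunit is Ezh2, and in the embryonic brain it covers many developmental and neuronal genes that are silent in the cells studied. It was profiled by bulk CUT&Tag, in which an antibody brings a transposase to the mark, in the MGE (medial ganglionic eminence) dissected from mouse embryos, a ventral forebrain region that produces many cortical interneurons. The samples used were 3 WT and 3 KO libraries at each of E12.5 and E15.5, while 6 Het samples (of 18 in all) are not analysed here. The KO embryos had the genotype Nkx2.1-CreC/+;Ezh2;Ai9F/+ by the labels, from a cross of Nkx2.1-CreC/C;Ezh2F/+ males with Ai9F/F;Ezh2F/+ females. By that cross WT embryos carried the Nkx2.1-Cre and Ai9 alleles as well, Ai9 being a tdTomato reporter that Cre turns on. Nkx2.1-Cre acts in the Nkx2-1 lineage, so other cells of the dissected tissue kept Ezh2. MGEs of embryos of 1 genotype were pooled where applicable, and the labels number the libraries as biological replicates. The whole MGE was taken at E12.5 and only the tdTomato-positive MGE at E15.5, so that stage and dissection cannot be told apart.

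Each library came with its own list of enriched intervals, between 5008 and 13289 of them, with 573838 to 6846250 counts inside. Depth, given as the mean count per 200 bp window, ran at E12.5 from 0.117 to 0.698 (WT) and 0.212 to 0.272 (KO), and at E15.5 from 0.0751 to 0.150 (WT) and 0.179 to 0.346 (KO). No list was a copy of another, and Ezh2 itself had an interval in 0 of 12 libraries, so the lists do not check its deletion. Of 10 MGE genes (Nkx2-1, Lhx6, Dlx1 and others), 7 had an interval in all 12 libraries, as did 10 of 12 markers of other regions and cell types. Presence of the mark in bulk tissue thus does not check the tissue. A gene was counted as marked in a library when an interval touched its body or the 2500 bp on either side. Normalised counts are the counts of those intervals brought to a common depth (the mean over the 12 libraries), and all intervals of a gene are summed.

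H3K27me3 was found more often at the channel genes than at genes in general, and which genes carried it divided the families unevenly. In all 12 libraries 18 of the 39 channel genes (46.2%) had an interval, against 12.1% of all autosomal protein-coding genes. Another 15 (38.5%) had one in 1 to 11 libraries, against 26.7% of all genes, and 6 (15.4%) had none in any library, against 61.2%. In bulk tissue a larger share of cells with the mark and more of the mark per cell cannot be told apart. Channel genes are long, with 28 of 39 in the top 25% of all genes by length (over 45.0 kb), and among those 13 of 28 (46.4%) had an interval in all 12 libraries against 15.8% of 5167 genes.

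The number of marked channel genes per library was 23, 29 and 30 (WT) and 25, 27 and 26 (KO) at E12.5, and 20, 24 and 25 (WT) and 25, 24 and 28 (KO) at E15.5. In that order the group means were 27.3 ± 3.79, 26 ± 1, 23.0 ± 2.65 and 25.7 ± 2.08 (SD, n = 3), and the ranges of the 4 groups overlapped or, for E12.5 KO and E15.5 WT, met at 25. As a share these were 70.1, 66.7, 59 and 65.8% of channel genes, where all genes gave 26.2, 22.0, 18.6 and 21.6%.

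Among the pore-forming calcium subunits, 7 of 9 were marked in all 12 libraries: Cacna1a (the P/Q-type channel of nerve terminals), Cacna1c (an L-type channel), Cacna1e (R-type), the T-type genes Cacna1g, Cacna1h and Cacna1i, and Cacna1s (the L-type channel of skeletal muscle). The other alpha1 genes were marked in 10 libraries (Cacna1d, L-type) and 9 libraries (Cacna1b, the N-type channel). The alpha2delta genes, whose products bring channels to the cell surface and bind gabapentin-type drugs in the case of Cacna2d1 and Cacna2d2, were marked in 12 libraries for Cacna2d1, Cacna2d2 and Cacna2d3 and in 11 for Cacna2d4. Of the beta genes, which code for the cytoplasmic subunit that aids trafficking and gating, Cacnb3 and Cacnb4 were marked in all 12 libraries, Cacnb1 in 6 and Cacnb2 in 3. The gamma genes ranged from all 12 libraries (Cacng6 and Cacng8) through 11 (Cacng3), 9 (Cacng2, which codes for stargazin, and Cacng7), 8 (Cacng4) and 3 (Cacng5) to none (Cacng1, the gamma subunit of skeletal muscle).

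The sodium alpha genes differed from the calcium alpha1 genes: 2 of 10 were marked in all 12 libraries, among them Scn8a (Nav1.6 of the axon initial segment), and 5 of 10 in none. Those without an interval were Scn1a, Scn2a and Scn3a, the sodium channels of central neurons, and Scn9a and Scn10a, known from sensory neurons. Scn4a (skeletal muscle), Scn7a and Scn11a had an interval of at most 0.4 kb in 1 library each. Sodium beta genes were marked in 12 libraries (2 of 4, among them Scn4b), 5 (Scn2b) and 3 (Scn3b).

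**Figure D1:**
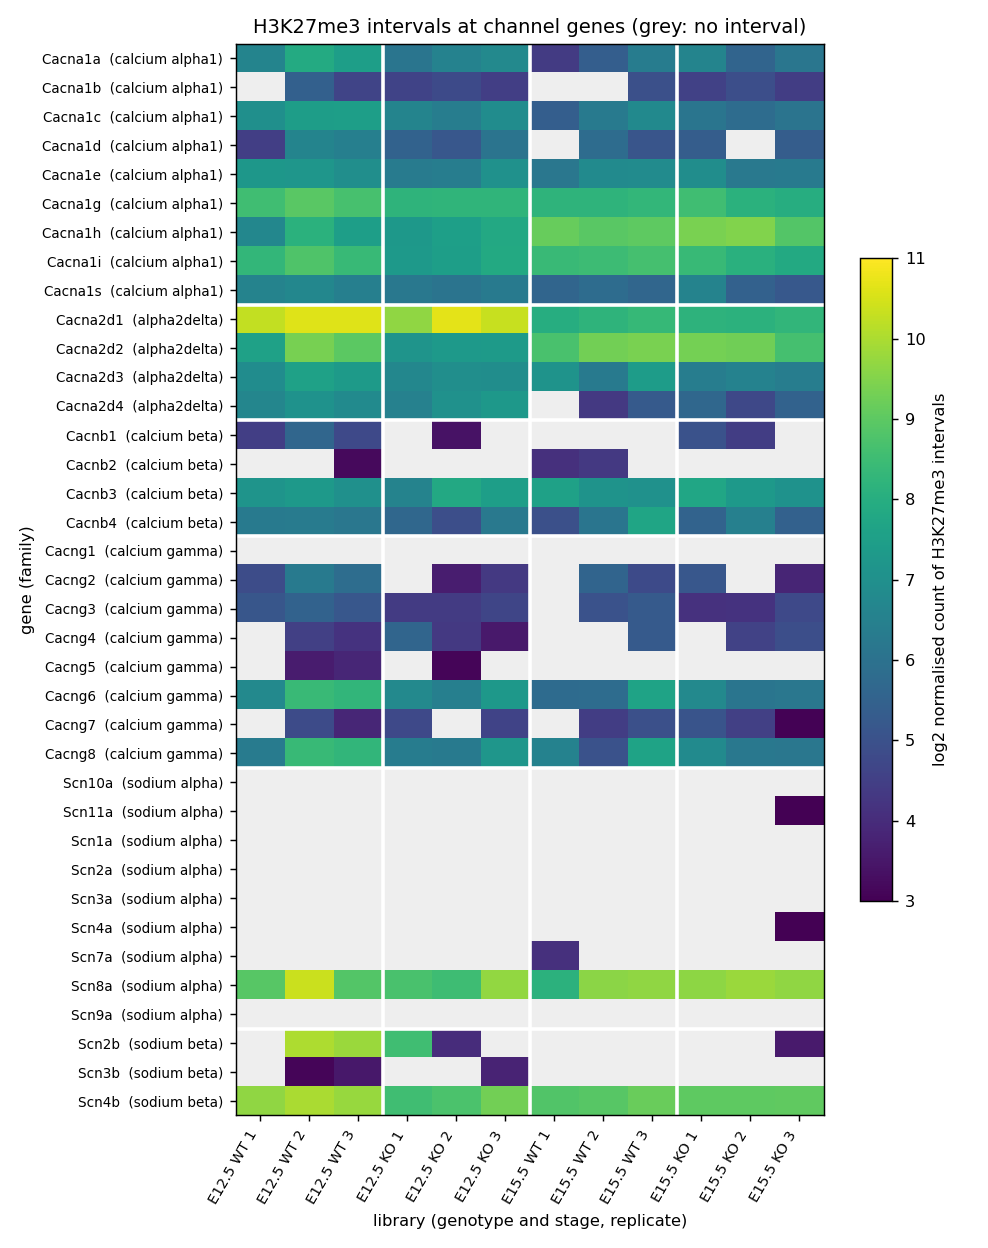
Normalised H3K27me3 count of 37 channel genes (rows, by family) in each of the 12 libraries (columns), coloured on a log2 scale, with grey where a library had no interval. Rows coloured in every column are genes marked in all 12 libraries, and the 6 rows that are grey throughout are Cacng1, Scn10a, Scn1a, Scn2a, Scn3a and Scn9a.

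The gap among sodium alpha genes followed their position. Scn3a, Scn2a, Scn1a, Scn9a and Scn7a lie side by side in a cluster of 1.33 Mb on chromosome 2 (chr2:65457118-66784910, GRCm38), which holds 8 protein-coding genes. Every library had 1 or 2 intervals in the whole cluster, covering between 0.2 and 4.8 kb. In 11 libraries these lay at Galnt3, which codes for a glycosyltransferase and is no channel gene, with 1 further interval at Ttc21b in E15.5 KO replicate 3. In E15.5 WT replicate 1, the shallowest library, the only interval of the cluster was 0.2 kb inside Scn7a with 5 counts. On chromosome 9, Scn10a had an interval in no library, and its neighbour Scn11a had 0.4 kb with 8 counts in E15.5 KO replicate 3.

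The start windows of channel genes show how marked and unmarked members differ in sequence. RefSeq start windows (GRCm38.p6), from 250 bases before to 50 bases after an annotated start, were at hand for 29 of the 39 genes, with 40 windows in all. The windows below are of 4 genes that had an interval over the start in all 12 libraries and of 3 neuronal or sensory sodium channel genes that had one in none. They are written 5′ to 3′ on the strand of the gene, and capitals mark CG dinucleotides, the bases at which DNA is methylated in mammals and which read the same on both strands. The Cacna2d1 window is chr5:15934441-15934740 (plus strand), that of Cacna2d2 is chr9:107399630-107399929 (plus), that of Scn4b is chr9:45138374-45138673 (plus) and that of Cacna1i is chr15:80286988-80287287 (plus). The Scn1a window is chr2:66440788-66441087 (minus), that of Scn9a is chr2:66634913-66635212 (minus) and that of Scn2a is chr2:65620519-65620818 (plus).
Cacna2d1: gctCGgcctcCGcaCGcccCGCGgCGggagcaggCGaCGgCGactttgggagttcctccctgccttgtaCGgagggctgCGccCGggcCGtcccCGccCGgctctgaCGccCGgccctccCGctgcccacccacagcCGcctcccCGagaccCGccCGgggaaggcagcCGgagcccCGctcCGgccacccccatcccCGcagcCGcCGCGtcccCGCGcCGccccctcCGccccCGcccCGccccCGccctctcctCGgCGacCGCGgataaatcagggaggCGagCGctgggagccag
Cacna2d2: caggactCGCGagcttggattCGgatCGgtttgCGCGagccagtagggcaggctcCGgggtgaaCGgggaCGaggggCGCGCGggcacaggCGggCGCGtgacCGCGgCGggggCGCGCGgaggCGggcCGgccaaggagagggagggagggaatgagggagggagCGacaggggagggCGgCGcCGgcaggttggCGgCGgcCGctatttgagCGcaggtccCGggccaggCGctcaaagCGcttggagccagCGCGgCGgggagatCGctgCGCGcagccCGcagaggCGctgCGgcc
Scn4b: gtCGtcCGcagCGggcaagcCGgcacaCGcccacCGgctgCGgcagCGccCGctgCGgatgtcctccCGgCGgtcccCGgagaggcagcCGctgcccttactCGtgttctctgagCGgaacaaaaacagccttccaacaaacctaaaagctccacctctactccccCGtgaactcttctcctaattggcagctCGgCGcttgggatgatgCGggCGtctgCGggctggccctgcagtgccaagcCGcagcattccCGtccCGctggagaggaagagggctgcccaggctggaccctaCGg
Cacna1i: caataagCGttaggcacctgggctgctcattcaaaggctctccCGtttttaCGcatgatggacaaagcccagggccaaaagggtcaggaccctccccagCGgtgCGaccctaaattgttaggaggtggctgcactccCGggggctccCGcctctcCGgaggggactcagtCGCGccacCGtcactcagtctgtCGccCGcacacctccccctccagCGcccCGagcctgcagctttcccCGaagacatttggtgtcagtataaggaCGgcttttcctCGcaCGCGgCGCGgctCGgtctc
Scn1a: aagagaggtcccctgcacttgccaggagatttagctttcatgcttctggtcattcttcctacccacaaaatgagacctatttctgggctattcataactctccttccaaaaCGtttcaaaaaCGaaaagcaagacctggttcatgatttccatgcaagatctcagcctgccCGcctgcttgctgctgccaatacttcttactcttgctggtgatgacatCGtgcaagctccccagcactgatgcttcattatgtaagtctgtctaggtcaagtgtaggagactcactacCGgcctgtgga
Scn9a: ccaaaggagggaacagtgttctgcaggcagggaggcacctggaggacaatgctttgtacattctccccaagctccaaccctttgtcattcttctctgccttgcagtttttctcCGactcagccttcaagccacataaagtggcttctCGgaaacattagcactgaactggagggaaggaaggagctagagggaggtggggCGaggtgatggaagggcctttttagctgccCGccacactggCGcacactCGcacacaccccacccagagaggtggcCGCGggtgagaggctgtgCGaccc
Scn2a: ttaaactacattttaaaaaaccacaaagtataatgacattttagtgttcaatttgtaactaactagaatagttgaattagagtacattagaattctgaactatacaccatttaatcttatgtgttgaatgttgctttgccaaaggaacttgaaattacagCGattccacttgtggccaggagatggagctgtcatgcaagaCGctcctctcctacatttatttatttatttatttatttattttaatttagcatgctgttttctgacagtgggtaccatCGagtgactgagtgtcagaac

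The marked windows held 42 (Cacna2d1), 43 (Cacna2d2), 26 (Scn4b) and 23 (Cacna1i) CG dinucleotides in 300 bases, at a GC content of 80.0, 75.7, 66.3 and 62.7%. Those without the mark held 5 (Scn1a), 9 (Scn9a) and 3 (Scn2a), at 47.3, 57.3 and 33.0% GC. A second Scn2a window without the mark, not printed, held 9 CG at 47.7% GC. Windows marked in all 12 libraries but not printed held 11 (Cacna1e), 8 (Cacng6), 7 and 29 (Cacnb3) and 27 and 40 CG (Cacnb4). The printed windows thus differ more clearly than all windows of the 2 kinds. At least 1 CG was present in 95.6% of the 20085 start windows of autosomal protein-coding genes, so the number per window rather than presence was compared.

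Over the start itself, 10 of the 40 channel windows (25%, from 8 genes) lay in an interval of all 12 libraries, against 7.24% of all start windows. The 10 windows held a median of 26.5 CG (7 to 43), where all windows of that class had a median of 20. The 15 channel windows in an interval of no library (37.5%, against 71.3% of all windows) held a median of 4.0 CG (2 to 12), against 8.0 for all such windows, and the 15 of 1 to 11 libraries a median of 20 (2 to 63), against 21.0. Set the other way round, all 15 channel windows with at least 20 CG lay in an interval of at least 1 library and 7 of them (46.7%) in all 12, against 41.5% and 10.4% of the 7451 such windows of all genes. Of the 25 channel windows with fewer CG, 10 (40.0%) lay in an interval of at least 1 library and 3 (12%) in all 12, against 21.2% and 5.4% of 12634. These shares are descriptions, and windows of 1 gene share their locus.

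**Figure D2:**
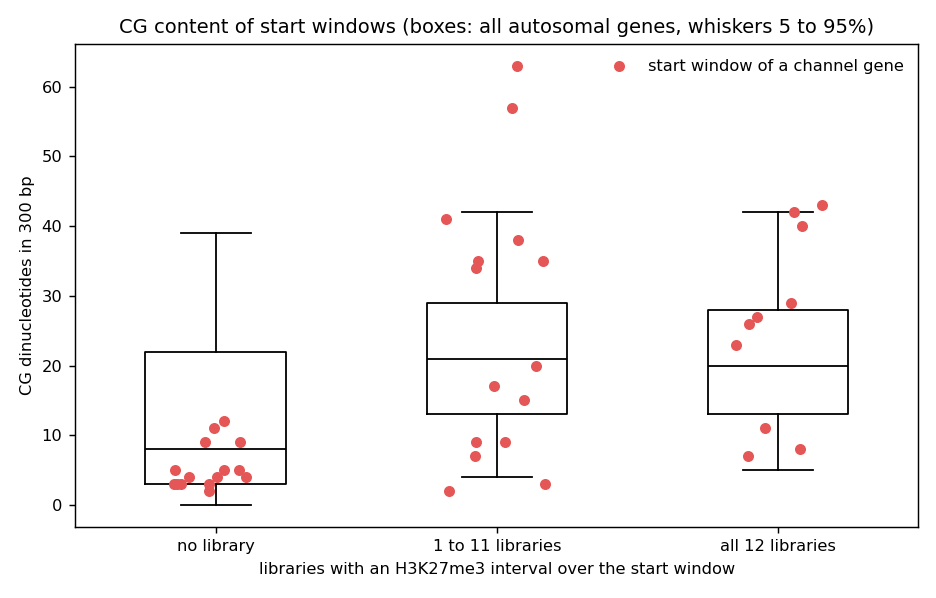
Number of CG dinucleotides in the 300 bp around an annotated start, for windows in an H3K27me3 interval of no library, of 1 to 11 libraries and of all 12. Red points are the 40 channel windows, and boxes give the quartiles of all autosomal windows with whiskers from the 5th to the 95th percentile. The channel windows of the first class all hold 12 CG or fewer, below the median of 26.5 of those in all 12 libraries.

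The stretch of each extended gene body that was covered in every library was short. Of the 18 genes marked in all 12 libraries, 17 shared at least 1 stretch, between 1.3 kb (Cacna1s) and 8.6 kb (Cacna2d1) in total, and Cacna1a had no stretch in common. The Cacna1s stretch, chr1:136050306-136051600, lay wholly in the 2500 bp before the gene and not in its body. At Cacna2d1 the shared stretches were chr5:15932601-15936400, which holds the start, and 3 more between chr5:15981401 and chr5:15992200, downstream of it in the gene body. At Cacna2d2 they were chr9:107398001-107403000 at the start and chr9:107525001-107527400 near the far end of the gene. Scn4b, which codes for a short single-pass subunit, was covered over chr9:45136124-45144400, a stretch that includes the 2500 bp before the gene. Its length came to 53.3% of that of the gene, so the share of the gene itself that was covered is smaller. Cacna1i was covered at its start over chr15:80285001-80289800, Cacna1e over chr1:154723601-154727600, Cacnb3 over chr15:98631201-98635600 and Cacnb4 over chr2:52675001-52676600. In the long genes the share was small, 1.8 kb of 610.1 kb for Cacna1c and 4.0 kb of 494 kb for Cacna1e.

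Some of this mark could not be given to 1 gene. At Cacna1s 97.4% of the counts, and at Cacna2d4 98.2%, lay in intervals that also touched a neighbour (Ascl5 and Lrtm2). The same held for 77.8% at Scn8a (Fignl2), 84.3% at Cacng7 and 45.1% at Cacna1g (Spata20). Cacng6 and Cacng8 shared 70.5 and 72.7% of theirs with each other, and 97.5% of the counts at Scn2b lay in intervals that reached it from Scn4b. The stretch shared by all libraries at Scn8a, chr15:101044201-101048438, lies at the end of the gene away from its annotated starts. For a level per kb of covered length, each interval gave the part of its count, by length, that lay within the extended gene body. Counts in a stretch that also belonged to a neighbour were not removed. The level was highest at Scn4b (40.0 ± 7.30 normalised counts per kb, SD over 12 libraries), Cacna1i (35.4 ± 9.96), Scn8a (31.7 ± 11.2) and Cacna2d1 (25.4 ± 10.4). It was lowest at Cacna1a (8.98 ± 2.27), below the next gene, Cacna1e (13.4 ± 2.16), by more than the SD of either, and all other neighbours in this order differed by less than their SD.

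Between WT and KO at E12.5, 19 of the 21 channel genes tested had a change below 0, next to 91.6% of all genes tested. Cacna2d2, an alpha2delta gene (chr9:107399733-107529346), was the 1 channel gene at which the mark fell past the threshold. Its normalised counts were 193, 657 and 507 in WT against 139.6, 159 and 166 in KO. The 3 KO libraries lay below the 3 WT libraries, with WT replicate 1, the shallowest of the 6, nearest to them. The change was -1.55 (SE 0.41) on the log2 scale, with an adjusted p of 0.0430 in edgeR's quasi-likelihood test over 3140 genes. This was 1 call among 21 channel genes tested, next to 4.04% of all genes, which were all lower in KO. The test had little power here: on simulated counts it recovered 3.5% of the 200 genes given a 2-fold change, so a gene that did not pass is not shown to be equal in both genotypes. The median change was -0.55 for the channel genes and -0.57 for all genes, a shift that Cacna2d2 exceeded. The call was lost with TMM factors (-0.95, adjusted p 0.223) and with DESeq2 (-0.88, adjusted p 0.131), which set that shift near 0 and split the calls over all genes into 38 lower and 9 higher (TMM) and 98 lower and 73 higher (DESeq2), against 127 and 0. DESeq2 instead called Cacna2d4 higher (0.70, adjusted p 0.0184). It was also lost without WT replicate 2 (edgeR adjusted p 0.135), WT replicate 3 (0.0597), KO replicate 1 (0.274) or KO replicate 2 (0.106).

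The position of the lower counts of E12.5 KO at Cacna2d2, a call that passed in 6 of 14 alternatives, could be read from the intervals. Limits for 3 blocks were set after the intervals had been seen, so the blocks are described without a test. In the middle block, 20 to 110 kb downstream of the start, the normalised counts were 44.3, 322 and 189.8 (WT) against 0, 0 and 0 (KO) at E12.5 and 125, 249 and 241 (WT) against 282, 239.6 and 101 (KO) at E15.5. The E12.5 KO libraries had no interval there, while all 9 other libraries had. The depth was 0.212 to 0.272 in E12.5 KO, 0.117 to 0.698 in E12.5 WT and 0.0751 in the shallowest E15.5 WT library, and its part in this pattern was not tested. The covered length in that block was 4.4, 37.4 and 21.6 in E12.5 WT, 7.4, 21.6 and 22.6 in E15.5 WT and 33, 33.4 and 15.4 in E15.5 KO, in kb. Around the start the counts were 99.7, 197 and 223 (WT) against 102, 112 and 107 (KO) at E12.5 and 221, 291 and 284 (WT) against 258, 278 and 220.4 (KO) at E15.5. There every library had an interval, and E12.5 KO overlapped E12.5 WT. An interval that was not called has no count, so 0 means only that no enrichment was listed.

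At E15.5 the genotypes were close at Cacna2d2. Its normalised counts were 415, 633 and 666 in WT against 645, 612 and 396 in KO, and the groups overlapped. The KO libraries differed from WT by -0.06 (SE 0.24; edgeR adjusted p 0.954). The difference between the 2 genotype effects, 1.50 (SE 0.50) on the log2 scale, did not pass (edgeR adjusted p 0.121) and passed without E12.5 WT replicate 1 (1.85, adjusted p 0.0138). A dependence of the genotype effect on stage is therefore not established at this gene.

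Other channel genes were low in E12.5 KO without passing the test. For 8 of the 21 the 3 KO libraries lay below the 3 WT libraries (Cacna1s, Cacna1g, Cacna1i, Cacna1c, Cacng3, Scn4b and Cacna2d2 among them), next to 33.0% of all genes tested, and for none above, next to 0.35%. At Cacna1i, a T-type channel gene of thalamus and other neurons, the counts were 312, 448 and 334 in WT against 158, 180.3 and 231 in KO. No KO library reached a WT library, and the change of -0.95 (SE 0.34) had an edgeR adjusted p of 0.116. At Scn4b they were 813, 1015 and 874 in WT against 374, 427 and 636 in KO, again without overlap, with a change of -0.91 (SE 0.32; edgeR adjusted p 0.110). At Cacng8, a partner of AMPA receptors, they were 79.8, 337 and 311 in WT against 82.1, 76.3 and 147 in KO. Here WT replicate 1 fell inside the KO range, and the change was -1.27 (SE 0.48; edgeR adjusted p 0.126). Its neighbour Cacng6, with which it shares intervals, gave 109, 346 and 311 in WT against 109, 87.8 and 153 in KO and the same overlap. Without E12.5 KO replicate 3, Cacna1i, Scn4b, Cacng6 and Cacng8 passed as well (edgeR adjusted p 0.0427 to 0.0481). Counted per merged region, Cacna1i and Scn4b passed too (edgeR adjusted p 0.0478 and 0.0360), and Scn4b did with the replicate number as a block (0.0483). Calls over all genes in these settings are not given here.

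At E15.5 none of 18 channel genes passed between WT and KO in edgeR, next to 0.482% of 2695 genes (0.0742% lower and 0.408% higher). DESeq2 called none either, and 1 (Cacna1i) was under an unadjusted edgeR p of 0.05, next to 303 of all 2695 genes. The median change was -0.01 for the channel genes and for all genes. Cacna1i was also the only channel gene whose E15.5 groups did not overlap, with 342, 356 and 395 in WT against 333, 269 and 232 in KO; KO was the lower group, as for 8.09% of all genes tested (11.1% were higher without overlap), and the change was -0.40 (SE 0.16; edgeR adjusted p 0.426). Fitted over both stages, none of 18 passed in edgeR, next to 0.963% of 2492 genes (0.923% lower and 0.0401% higher). In that fit 5 were under an unadjusted p of 0.05, next to 526 of all 2492 genes. Cacna1i came to -0.67 there (edgeR adjusted p 0.107) and passed with TMM factors (-0.38, adjusted p 0.0232) and with DESeq2 (-0.38, adjusted p 0.000749), which also called Cacna1h higher (0.40, adjusted p 0.0339). Over all genes the calls at E15.5 were 2 lower and 11 higher (24 and 48 with DESeq2), and over both stages 23 lower and 1 higher (49 and 53 with TMM factors, 113 and 104 with DESeq2). For the stage by genotype interaction none of 18 passed, next to 0.562%, and none by DESeq2, where all genes gave 0 lower and 14 higher (5 and 38 with DESeq2). Of the 18, 5 were under an unadjusted edgeR p of 0.05, next to 686 of all 2492 genes, a share close to theirs.

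**Figure D3:**
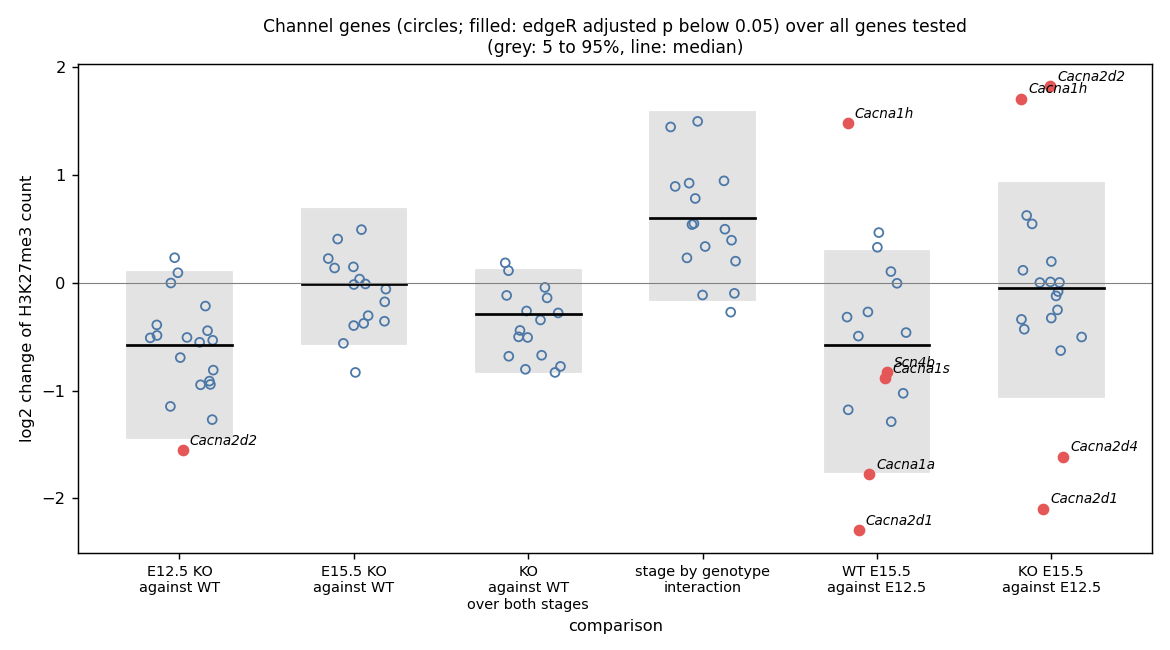
Log2 change of the H3K27me3 count for channel genes tested (circles, filled where the edgeR adjusted p is below 0.05) in each of 6 comparisons, over the 5th to 95th percentile of all genes tested (grey) and their median (line). Filled circles drawn are 1 in E12.5 KO against WT, 5 in WT across stages, where 1 more gene that passed is not drawn, and 4 in KO across stages, with none in the other comparisons.

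More channel genes passed the test across stages than between genotypes, although the power of the tests differed. In WT, 6 of 18 passed between E15.5 and E12.5, 5 lower and 1 higher, next to 35.8% of all genes lower and 1.71% higher. The 6 became 2 without E12.5 WT replicate 3 or E15.5 WT replicate 1, and 1 (Cacna2d1) without E15.5 WT replicate 2. The share of lower calls was no higher than among all genes, and the median change was -0.57 for the channel genes and -0.58 for all genes. In KO, 4 of 21 passed, 2 lower and 2 higher, next to 5.49% and 4.13% (9.62% together) of 3003 genes, with medians of -0.08 and -0.05. With TMM factors and DESeq2 the calls over all genes were 449 lower and 271 higher and 382 and 373 in WT, against 939 and 45, and 231 and 265 and 258 and 305 in KO, against 165 and 124. Among the channel genes these scalings called 3 lower and 2 higher (TMM) and 3 and 4 (DESeq2) in WT, and both called 2 lower and 4 higher in KO. Both called Cacna1i higher at E15.5 in WT (0.48 and 0.58, adjusted p 0.0165 and 0.000867) and in KO (0.55 and 0.57, adjusted p 0.0308 and 0.0320), where the depth scaling gave -0.0038 and 0.55 without a call. On simulated counts edgeR recovered 13.5% of the 2-fold changes in WT across stages and 18% in KO. For 8 of 18 channel genes the E15.5 WT libraries lay below those of E12.5 (52.0% of all genes) and for 1 above (3.93%), and in KO for 4 of 21 below (12.4%) and 3 above (11.4%). The WT and KO comparisons use different libraries. Stage, dissection and, in WT, depth (0.117 to 0.698 at E12.5 and 0.0751 to 0.150 at E15.5) differed together and cannot be told apart.

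Cacna2d1 (chr5:15934264-16374511) fell in both genotypes. Its normalised counts were 1221, 1559 and 1571 (WT) against 808, 1641 and 1299 (KO) at E12.5 and 256, 297 and 331 (WT) against 291, 281 and 306 (KO) at E15.5. All 6 E15.5 libraries lay between 256 and 331 and all 6 E12.5 libraries between 808 and 1641, so the stages did not overlap. In WT the change was -2.30 (SE 0.17; edgeR adjusted p 0.00158) and in KO -2.09 (SE 0.31; edgeR adjusted p 1.84e-06). It stayed past the threshold in all 15 alternatives in WT (-2.95 to -1.73) and all 14 in KO. Between genotypes at E12.5 it differed by -0.22 (SE 0.31; edgeR adjusted p 0.596), less than the spread of the KO libraries.

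At Cacna2d1 the change was largest inside the gene. In a block 30 to 90 kb downstream of the start, with limits set after the intervals were seen and no test, the counts were 776, 979 and 990.0 (WT) against 544, 1220.3 and 975 (KO) at E12.5 and 111, 102 and 140.4 (WT) against 160.1, 91.5 and 159 (KO) at E15.5. The means were 915 ± 121, 913 ± 343, 118 ± 20 and 137 ± 39.2 (SD, n = 3), so the E12.5 libraries stood far above those of E15.5. Around the start, whose CG-rich window is printed above, the means were 530 ± 72.9, 336 ± 78.9, 177 ± 27.5 and 156 ± 29.9. Every library kept an interval over the start.

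Cacna1h (chr17:25374285-25436334), a T-type channel gene, rose in both genotypes. Its normalised counts were 104, 275 and 181 (WT) against 156, 181 and 229 (KO) at E12.5 and 564, 498 and 522 (WT) against 674, 718 and 461 (KO) at E15.5. Every E15.5 library (461 to 718) lay above every E12.5 library (104 to 275). In WT the change was 1.48 (SE 0.33; edgeR adjusted p 0.0186), and in KO 1.71 (SE 0.31; edgeR adjusted p 5.94e-05). In WT the call was lost without E12.5 replicate 3, E15.5 replicate 1 or E15.5 replicate 2 (edgeR adjusted p 0.0650, 0.0690 and 0.0680) at changes of 1.43 to 1.52. The KO call was lost only when counts were taken per merged region (0.75, edgeR adjusted p 0.105). The E15.5 genotypes differed by 0.23 (SE 0.18; edgeR adjusted p 0.647), which did not pass. In an inner block of the gene, described without a test, the means were 73.7 ± 56.4 (WT) and 45.0 ± 40.1 (KO) at E12.5 and 337 ± 21.3 (WT) and 376 ± 85.7 (KO) at E15.5 (SD, n = 3). E12.5 KO replicate 1 had no interval in this block and entered its mean as 0. The outer block, which holds the stretch shared by all libraries, went from 113 ± 29.4 and 143 ± 17.7 to 191 ± 12 and 241 ± 51.7.

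**Figure D4:**
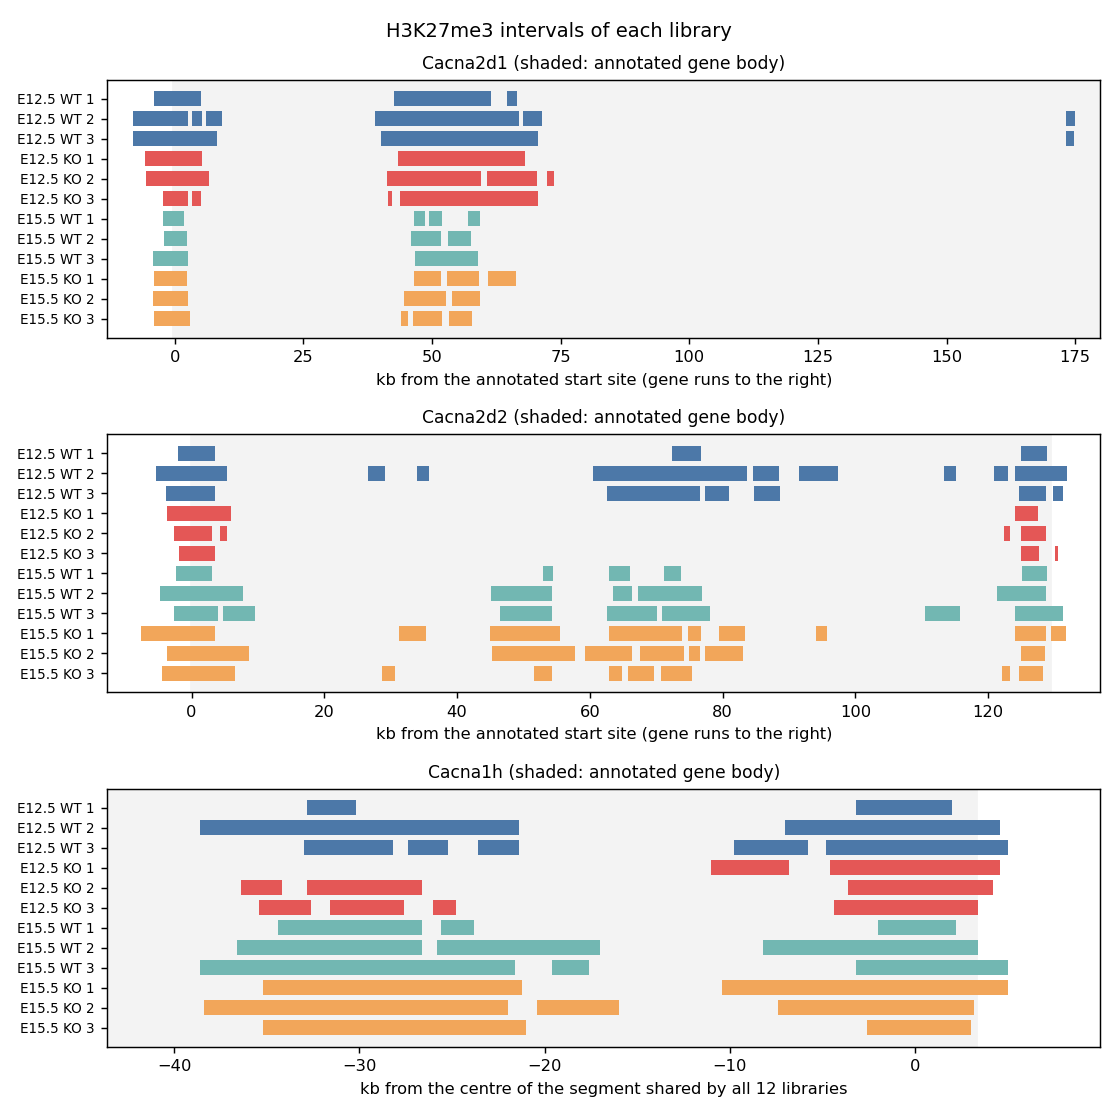
Positions of the H3K27me3 intervals in each of the 12 libraries at Cacna2d1, Cacna2d2 and Cacna1h, in kb from the start site or, for Cacna1h, from the centre of the shared stretch. The Cacna2d1 block 30 to 90 kb from the start is sparser at E15.5, the 3 E12.5 KO libraries have no interval 20 to 110 kb from the start of Cacna2d2, and the inner intervals of Cacna1h cover 15.8 and 16.3 kb on average at E15.5 against 9.67 and 5.47 kb at E12.5. The mean of 5.47 kb counts E12.5 KO replicate 1, which has no inner interval, as 0.

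In KO across stages Cacna2d2 and Cacna2d4 passed, which did not pass or were not tested in WT. Cacna2d2 rose from E12.5 KO to E15.5 KO by 1.83 (SE 0.31; edgeR adjusted p 2.68e-05), in all 14 alternatives, with E12.5 KO at 166 or below and E15.5 KO at 396 or above. In WT its stage change was 0.33 (edgeR adjusted p 0.552), and the groups overlapped, but DESeq2 called it higher there too (0.96, adjusted p 0.0243). Cacna2d4, whose product is an alpha2delta subunit of retina, had 102, 136 and 114 (WT) against 90.6, 132 and 155 (KO) at E12.5 and 0, 20.1 and 38.1 (WT) against 50.9, 26.5 and 45.9 (KO) at E15.5. The stages did not overlap in either genotype, and the KO change was -1.61 (SE 0.40; edgeR adjusted p 0.00474), lost without E15.5 KO replicate 2 (adjusted p 0.0925) and when genes marked in most libraries were tested (0.0514). Because E15.5 WT replicate 1 had no interval there, Cacna2d4 was not tested in WT across stages. Without that library it fell by 2.00 in WT (edgeR adjusted p 0.0482).

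In WT across stages further genes fell that did not pass in KO, among them Cacna1a, Cacna1s and Scn4b. At Cacna1a, the P/Q-type gene (chr8:84338631-84640251), the counts were 97.5, 237 and 177 (WT) against 68.6, 92.5 and 108 (KO) at E12.5 and 20.8, 42.2 and 81.5 (WT) against 97.5, 48.2 and 69.9 (KO) at E15.5. The WT stages did not overlap, and the change was -1.78 (SE 0.51; edgeR adjusted p 0.0348). At Cacna1s they were 95.3, 104 and 87.6 (WT) against 73.5, 67.7 and 78 (KO) at E12.5 and 48.4, 56.3 and 50.3 (WT) against 94.6, 44.6 and 36.9 (KO) at E15.5, again without overlap between the WT stages and with a change of -0.88 (SE 0.22; edgeR adjusted p 0.0239). The 2 calls changed with the setting: Cacna1a passed in 8 of 14 alternatives, and Cacna1s in 5 of 14, both lost with TMM factors (adjusted p 0.0547 and 0.133) and without 4 and 5 of the 6 libraries in turn. The setting without the extension is not among the 14 of Cacna1s, whose shared stretch lies before the gene.

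At Scn4b (chr9:45138624-45154155) the counts were 813, 1015 and 874 (WT) against 374, 427 and 636 (KO) at E12.5 and 453, 488 and 577 (WT) against 514, 520.2 and 524 (KO) at E15.5. The WT stages did not overlap, with a change of -0.83 (SE 0.16; edgeR adjusted p 0.0132), while the KO libraries of the stages overlapped. The call was lost without E15.5 WT replicate 1 or E15.5 WT replicate 2 (edgeR adjusted p 0.0630 and 0.0679) or with DESeq2 (-0.26, adjusted p 0.157). Whether the stage effect differs between genotypes at Cacna1a, Cacna1s and Scn4b was part of the interaction fit, in which none passed, while Scn4b did (1.20, edgeR adjusted p 0.0159) once E12.5 KO replicate 3 was left out.

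**Figure D5:**
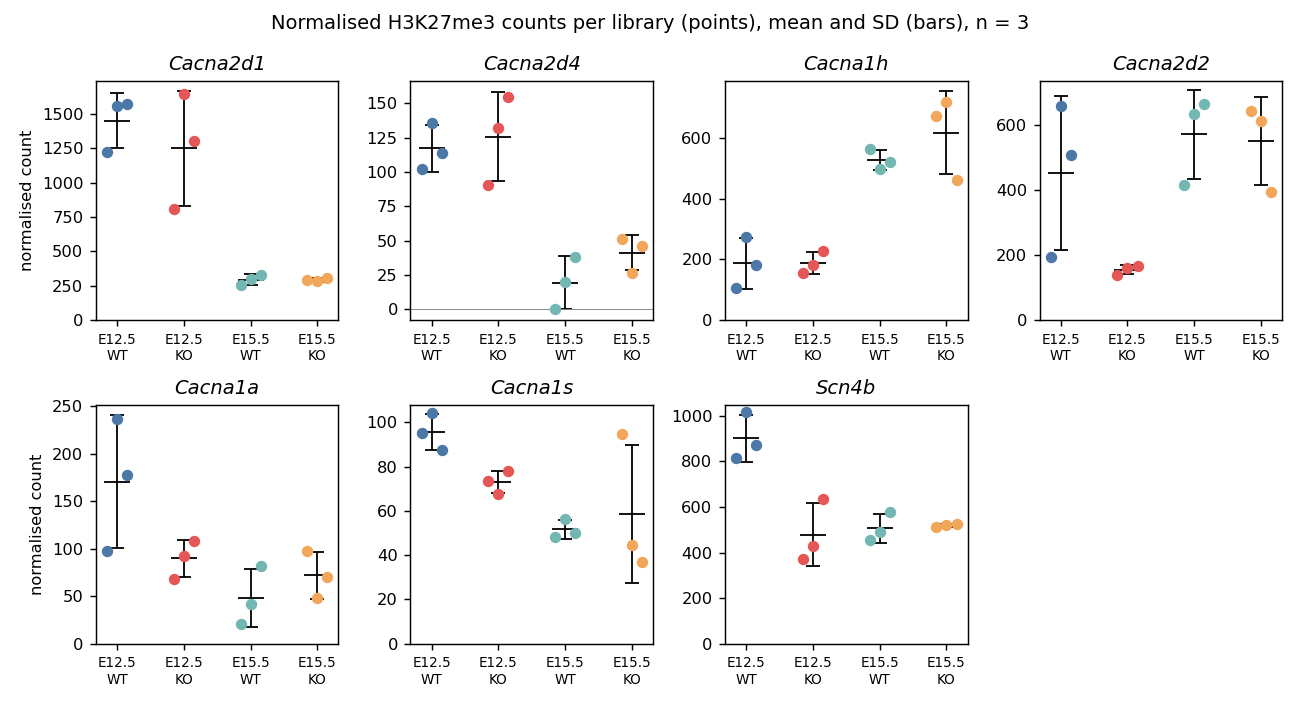
Normalised H3K27me3 count of each library (points) with the mean and SD (bars, n = 3) at 7 channel genes that passed the test in at least 1 comparison, by stage and genotype. At Cacna2d1 the E15.5 libraries lie between 256 and 331 and those of E12.5 between 808 and 1641, and at Cacna2d2 the 3 E12.5 KO libraries lie at 166 or below, under all other libraries.

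The genes marked in all 12 libraries that passed in no comparison varied between libraries to different degrees, from 251 to 498 at Cacna1g to 32.1 to 337 at Cacng8. Cacna1g, a T-type gene, had 370.0, 498 and 407 (WT) against 293, 304 and 301 (KO) at E12.5 and 297, 293 and 315 (WT) against 375, 276 and 251 (KO) at E15.5. Its E12.5 WT libraries were the highest apart from E15.5 KO replicate 1, which lay between them. For Cacna1e they were 151, 149 and 125 (WT) against 80.8, 84 and 132 (KO) at E12.5 and 72.6, 115 and 116 (WT) against 122, 75.9 and 76.7 (KO) at E15.5, and for Cacna1c 126, 175 and 178 (WT) against 96.8, 83 and 119 (KO) at E12.5 and 41.5, 78.4 and 111 (WT) against 68.4, 56.6 and 67.7 (KO) at E15.5, where E12.5 WT stood above all other libraries. Cacna2d3, the largest of the channel genes at 818 kb, had 117, 193 and 163 (WT) against 104, 125 and 122 (KO) at E12.5 and 138, 76.3 and 169.9 (WT) against 84.4, 92.7 and 83.5 (KO) at E15.5. There the E15.5 KO libraries lay below both E12.5 groups.

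Of the beta subunit genes, Cacnb3 had 139.6, 156 and 129.8 (WT) against 95.5, 227 and 177 (KO) at E12.5 and 190.3, 139 and 133 (WT) against 214, 157 and 135 (KO) at E15.5, and all 4 groups overlapped. At Cacnb4 the values were 77.6, 80.0 and 71.9 (WT) against 51.4, 30.5 and 74.8 (KO) at E12.5 and 31.1, 68.3 and 206 (WT) against 46.6, 89.1 and 44.4 (KO) at E15.5, where E15.5 WT replicate 3 stood above the rest. Scn8a gave 487, 1307 and 467 (WT) against 418, 368 and 830.1 (KO) at E12.5 and 284, 774 and 816 (WT) against 795, 881 and 817 (KO) at E15.5, and the E12.5 WT libraries held both the highest value and some of the lowest. Cacng6 at E15.5 had 55.3, 56.3 and 198 in WT against 108, 68.6 and 71.4 in KO, and Cacng8 93.4, 32.1 and 198 in WT against 114, 73.5 and 71.4 in KO, with the genotypes overlapping at both.

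Presence changed between whole groups at 1 channel gene. Cacnb1, the beta subunit gene of skeletal muscle and other tissues, had an interval in all 3 E12.5 WT libraries and in no E15.5 WT library, as did 1.04% of all genes, while 0.0242% did the reverse. Across the KO stages no channel gene did so in either direction, next to 0.3% and 0.179%. The Cacnb1 counts were 22.2, 49.5 and 27 (WT) against 0, 10.5 and 0 (KO) at E12.5 and 0, 0 and 0 (WT) against 32, 21.7 and 0 (KO) at E15.5, so 1 E12.5 KO and 2 E15.5 KO libraries also had it. Depth was 0.117 to 0.698 in E12.5 WT and 0.0751 to 0.150 in E15.5 WT. It was 0.272, 0.179 and 0.216 in the KO libraries with an interval and 0.212, 0.243 and 0.346 in those without. The counts were low, and the part of depth in this pattern was not tested. No channel gene was marked in all 3 libraries of a genotype and in none of the other at either stage, next to 0.208% of all genes lost and 0.0% gained in KO at E12.5, and 0.0145% and 0.416% at E15.5.

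A list of 27 genes whose products bind, anchor or regulate these channels was read in the same way. Of these 6 were marked in all 12 libraries: Sptbn4 (the spectrin of the axon initial segment), Fgf11 (a fibroblast growth factor homologous factor, a family that binds sodium channels), Rem1 (a GTPase that inhibits calcium channels), Stac2 and Stac3 (adaptors of L-type channels) and Cabp1 (a calcium sensor). In none were 8, with the anchoring gene Nrcam, Fgf14, Gem, the sodium leak channel Nalcn with its partners Unc79 and Unc80, and Calm2, a calmodulin gene, among them. In WT across stages 4 of 6 tested fell, next to 35.8% of all genes, with log2 changes of -0.88 for Sptbn4 (edgeR adjusted p 0.00935), -1.19 for Fgf11 (0.0147), -1.11 for Rem1 (0.0236) and -0.58 for Cabp1 (0.0410). The median change was -0.996 for the 6 and -0.58 for all genes, so Cabp1 did not exceed the shift of all genes. TMM factors and DESeq2 each called 3 of the 6 lower, next to 449 and 382 of all 2624 genes. In KO across stages 1 of 9 passed, Fgf11, which fell by 1.30 (SE 0.33; edgeR adjusted p 0.00567). Between genotypes none passed in edgeR, of 8 tested at E12.5, 7 at E15.5 and 6 over both stages (none of the last 2 sets under an unadjusted p of 0.05 and none by DESeq2). At E12.5, 1 (Fgf12) was under an unadjusted edgeR p of 0.05, next to 905 of all 3140 genes, and 2 (Fgf11 and Cabp1) were called higher by DESeq2.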

How the data were processed

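H3K27me3 CUT&Tag libraries of MGE were grouped by the stage and genotype in the labels (4 groups of 3), and replicates are samples that the labels number as biological replicates. Reads were processed with cutadapt, Bowtie2, SAMtools, Picard, deepTools and SICER on GRCm38 (mm10), per the submitters' processing notes; versions and caller settings are not given in the sources used here. The deposited lists, 1 per library, hold intervals on a grid of 200 bp, each with a raw count that the authors did not normalise and a score. The deposited score was used for depth and ranking only: in intervals of 1 window it equalled the negative natural log of a Poisson probability, from which the mean count per window was recovered (largest misfit 0.00138). That this mean follows total reads is an assumption. Counting error is larger in the shallow libraries, and an interval that was not called has no count.

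Genes and start windows came from RefSeq GRCm38.p6, and coordinates count from 1. Counts of whole intervals touching the gene body extended by 2500 bp were summed per gene. Genes with an interval in every library compared were tested with edgeR 4.0.16 in R 4.3.3 (quasi-likelihood test, library sizes proportional to depth, Benjamini-Hochberg over all such genes, threshold 0.05), which was tested on simulated data: of 200 genes given a 2-fold change it recovered 3.5% (E12.5) and 28% (E15.5) between genotypes, 56.5% over both stages, 0.5% in the interaction, and 13.5% (WT) and 18% (KO) across stages, so genes that did not pass may have changed by that much. A filter of this kind leaves out genes that lost every interval in a library. The SE is the change over the square root of F. Alternatives were TMM factors, DESeq2 1.42.0, length-weighted counts, no extension, genes marked in most libraries, a mean count of at least 50, merged regions, a replicate block and leaving out each library. Length-weighted counts take the part of an interval's count, by length, that lies within the extended gene body, without dividing it among genes. Leaving out the shallowest WT library of each stage was added after seeing the data. Shared stretches, blocks and CG counts were computed in Python 3.11.15 with pandas 2.3.3 and numpy 2.4.6; scipy 1.17.1 and matplotlib 3.10.9 were also used.

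Named with values are channel genes marked in all 12 libraries, switching between whole groups or past the threshold, and partner genes past it. Members, lists and tests were chosen with earlier results of these data known. The X-linked gene of the families lies outside the rule. Values of some genes are not reported here, though the counts include them.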

Additional observations from a re-analysis of the deposited data

How the results depend on the processing

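The calls at Cacna2d1 across stages in both genotypes and at Cacna2d2 across stages in KO kept direction and threshold in every alternative run, while most other calls rested on particular libraries. The number of channel genes called at E12.5 between genotypes (1) was 0 with TMM factors, 0 with genes marked in most libraries, 3 with merged regions (Cacna1i, Scn4b and Scn2b, of which the last shares its region with Scn4b) and 0 to 5 when 1 library was left out. The 0 of both stages together became 1 with TMM factors, 2 with DESeq2 and 1 with merged regions. The 0 of the interaction became 0 to 2 without 1 library (the 2, among them Scn4b, without E12.5 KO replicate 3) and 1 without the shallowest WT library of each stage (Cacna2d2). The 6 of WT across stages became 1 to 9 without 1 library: 2 without E12.5 WT replicate 3, and at E15.5 2 without replicate 1 and 1 without replicate 2. Marked channel genes per library moved by more than 1 SD with lists cut to equal length (at E12.5, 23.3 in WT and 23.0 in KO) and with intervals near gene ends only (23.0 in KO at E12.5, 19.7 in WT and 22.0 in KO at E15.5).

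Signs turned only at changes that had not passed. Cacna2d1 at E12.5 between genotypes was 0.32 with TMM factors, 0.38 with DESeq2, and -0.46 to 0.019 without 1 library (0.019 without KO replicate 1). Cacna2d2 at E15.5 ranged from -0.24 to 0.13 without 1 library (0.020, 0.066 and 0.13 without WT replicate 2, WT replicate 3 and KO replicate 3), and its WT stage change from -0.023 (without E12.5 WT replicate 1) to 0.69, with 0.96 by DESeq2, which called it (adjusted p 0.0243).

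Same-numbered libraries of different groups did not deviate together throughout (18 correlations from -0.35 to 0.39, 5 of them over 0.1). Other pairs ranged from -0.395 to 0.296. Between genotypes the same-numbered pairs gave 0.226, 0.019 and 0.168 at E12.5 and -0.223, -0.202 and -0.352 at E15.5. Across stages they gave 0.390, -0.0060 and 0.302 in WT and 0.0078, -0.043 and -0.028 in KO. The numbers were not taken to pair samples, though pairing in single comparisons is not excluded. With the replicate number as a block, 2 channel genes were called at E12.5 between genotypes (Scn4b besides Cacna2d2), 8 in WT across stages, 4 in KO across stages and 0 in the other fits. For this and the other alternatives apart from TMM factors and DESeq2, calls over all genes are not given here. Their counts of channel genes therefore cannot be set against a share of all genes.

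Changes that remove an interval from any library lie outside the test.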
